A study of Mus musculus with 2 samples.

Results

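The genes described here are 10 mouse genes that put arachidonate into membranes, oxidise it or break its products down: Acsl4, Lpcat3, Aifm2, Alox5, Alox5ap, Alox12, Alox15, Ptgs1, Ptgs2 and Hpgd. They were chosen by symbol from a table of 32285 genes, of which 21219 had a UMI (a unique molecular identifier, which tags 1 captured RNA molecule) in a kept cell, and all 10 had one. The cells were Lineage- cKit+ bone marrow cells, a sort for stem and progenitor cells, taken from the femora and tibiae of C57BL/6 mice, frozen, thawed and profiled by 10x Chromium 3' single-cell RNA sequencing. There was 1 library per genotype: Trsp f/f mice gave the control and Trsp f/f:Mx1-Cre mice the knockout. Trsp encodes the selenocysteine tRNA. Mx1-Cre is driven by an interferon-inducible promoter and so is not limited to blood cells. Mice of both genotypes received pI-pC, which induces the promoter, at 500 µg per mouse every other day for 3 doses, with 7 weeks after birth given as the age, and were sacrificed 9 weeks after the last dose. The sources used here do not say how many mice went into a library, and Trsp itself was not analysed here.

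Arachidonate is a polyunsaturated fatty acid held in membrane phospholipids. Acsl4 activates it and Lpcat3 inserts it into phospholipids, which makes the membrane a substrate for peroxidation. Free arachidonate goes to lipoxygenases (Alox5 with its membrane partner Alox5ap, Alox12, Alox15), which give leukotrienes and hydroxy acids, or to the cyclooxygenases Ptgs1 and Ptgs2, which give prostaglandins and thromboxane. Hpgd inactivates prostaglandins. Aifm2 regenerates a lipid-soluble radical trap and acts in parallel with the selenoprotein Gpx4, which reduces lipid hydroperoxides.

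The 2 libraries held 14372 control and 11556 knockout barcodes. After filters on genes and mitochondrial UMIs and removal of predicted doublets, 8046 control and 6640 knockout cells were kept, with medians of 20352 and 20744 UMIs per cell. The knockout library had the larger share of shallow cells: 14.01% of its kept cells had under 3000 UMIs, against 2.63% in the control. The kept cells of the libraries shared 10 barcodes. Cells were put into 13 classes by the summed UMIs of marker genes, and classes are called "-like" because thresholds on a score cut a range of cells and were set after marker and member values had been seen. Of the control cells 2150, and of the knockout cells 2642, met no threshold. Within 20% above the class threshold lay 68 control and 36 knockout basophil/mast-like cells and 141 and 196 monocyte progenitor-like cells. The same held for 9 and 5 dendritic-like cells and 180 and 134 MPP/LMPP-like cells. Ungated cells within 20% below the threshold numbered 103 and 62 for the basophil/mast-like class and 128 and 202 for the monocyte progenitor-like class. They numbered 0 and 0 for the dendritic-like class and 285 and 245 for the MPP/LMPP-like class. The 7 classes with at least 100 cells in each library were compared: HSC-like (stem cell markers, 477 control and 452 knockout cells), MPP/LMPP-like (multipotent and lymphoid-primed progenitor markers, 645 and 613), monocyte progenitor-like (1553 and 1145), dendritic-like (154 and 124), neutrophil progenitor-like (1914 and 946), maturing neutrophil-like (254 and 131) and basophil/mast-like (556 and 312). Neutrophil progenitor markers were also present outside their class, with a median over cells of 68.6 control and 61.9 knockout UMIs per 10000 in basophil/mast-like cells and 125 and 114 in monocyte progenitor-like cells. Levels are CPM, a gene's share of the UMIs of all genes summed over the cells of a class, scaled to counts per 1e6 UMIs, and differences are log2 of knockout over control CPM. With 1 library per genotype there is no replicate check and no test: all intervals are exact 95% intervals for counting error only, and genotype and library cannot be told apart. In summed cells, fewer expressing cells and less RNA per cell cannot be told apart either, and shares of cells with a UMI are given where they help.

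Promoter sequence is shown for 4 members whose level differed most between cell classes or between the libraries: Alox5, Ptgs1, Ptgs2 and Hpgd. Of the 10 members 8 had a start site in RefSeq (GRCm38.p6). Alox5ap and Alox15 had none. The 250 bases before the start are given 5' to 3' on the gene's strand. Capitals mark motif matches on either strand: GAGGAA, the core bound by PU.1 and other ETS factors, and TTGCNNAA, a C/EBP site. Also searched were TGACNNNGC, the core of the antioxidant response element, AGATAA, bound by the erythroid and mast cell zinc finger factors Gata1 and Gata2, and TGACG, part of the cyclic AMP response element.

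Alox5: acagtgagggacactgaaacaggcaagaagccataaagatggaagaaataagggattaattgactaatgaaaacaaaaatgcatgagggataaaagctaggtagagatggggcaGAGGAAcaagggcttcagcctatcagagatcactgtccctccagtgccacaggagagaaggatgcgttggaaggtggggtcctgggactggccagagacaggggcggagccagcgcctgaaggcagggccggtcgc

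Ptgs1: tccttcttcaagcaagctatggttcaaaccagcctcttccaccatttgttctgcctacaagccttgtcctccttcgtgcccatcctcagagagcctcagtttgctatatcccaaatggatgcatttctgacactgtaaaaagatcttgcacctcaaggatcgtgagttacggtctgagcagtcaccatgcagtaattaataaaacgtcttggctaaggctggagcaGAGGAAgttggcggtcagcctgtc

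Ptgs2: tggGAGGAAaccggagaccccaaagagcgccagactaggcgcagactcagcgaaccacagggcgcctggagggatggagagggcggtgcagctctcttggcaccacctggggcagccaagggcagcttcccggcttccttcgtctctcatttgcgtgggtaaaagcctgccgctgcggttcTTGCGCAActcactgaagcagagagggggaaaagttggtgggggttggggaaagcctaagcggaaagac

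Hpgd: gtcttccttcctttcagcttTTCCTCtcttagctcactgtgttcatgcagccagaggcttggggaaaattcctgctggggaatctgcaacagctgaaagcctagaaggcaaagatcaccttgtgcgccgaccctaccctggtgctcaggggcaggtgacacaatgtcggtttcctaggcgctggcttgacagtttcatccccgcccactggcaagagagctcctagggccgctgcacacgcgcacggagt

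The Alox5 window is chr6:116461179-116461428 on the minus strand, that of Ptgs1 is chr2:36230176-36230425 on the plus strand, that of Ptgs2 is chr1:150099781-150100030 on the plus strand and that of Hpgd is chr8:56294302-56294551 on the plus strand. GAGGAA or its reverse complement TTCCTC began 136 bases before the start in Alox5, 24 in Ptgs1, 247 in Ptgs2 and 230 in Hpgd. It was also in the windows of Lpcat3 and Alox12, and so in 6 of the 8 members, and 23.1% of 27025 mouse promoters of this length hold it. Ptgs2 alone of these 4 held TTGCNNAA, as TTGCGCAA beginning at 69, a motif in 9.55% of promoters. TGACNNNGC, present in 10.1% of promoters, was not found in the windows of the 8 members. A match is a string of letters and says nothing here about binding.

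Over all kept cells, members differed little between the libraries except where they were rare. A gene counted as measured with 50 UMIs in all and 20 CPM in at least 1 library, and was called higher or lower when it was at least 1.5-fold apart. Only Lpcat3 and Alox5ap were measured, and neither was called, where 1.02% of 6096 measured genes were higher and 0.607% lower in the knockout library. With 50 UMIs and any CPM as the only condition, 9 members entered (all but Alox12), of which Alox15 and Hpgd were higher and none lower, beside 5.64% of 14106 genes higher and 2.59% lower. The medians of all genes lay at 0.08 and 0.12 under these rules. Within classes, 41 of the 70 member-class pairs had 50 UMIs, and 8 of them were at least 1.5-fold higher and 3 at least 1.5-fold lower. Of all genes under that rule, 2.98% to 7.86% were higher and 1.78% to 3.33% lower, depending on the class. Under the stricter rule 22 pairs were measured, 3 were higher (Lpcat3 and Hpgd in dendritic-like cells and Alox5 in basophil/mast-like cells) and 0 were lower, beside 0.917% to 7.65% of genes higher and 0.451% to 3.17% lower. Lpcat3 and Hpgd reached 20 CPM in dendritic-like cells in the knockout library only, and so were measured through the library in which they were higher.

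**Figure D1:**
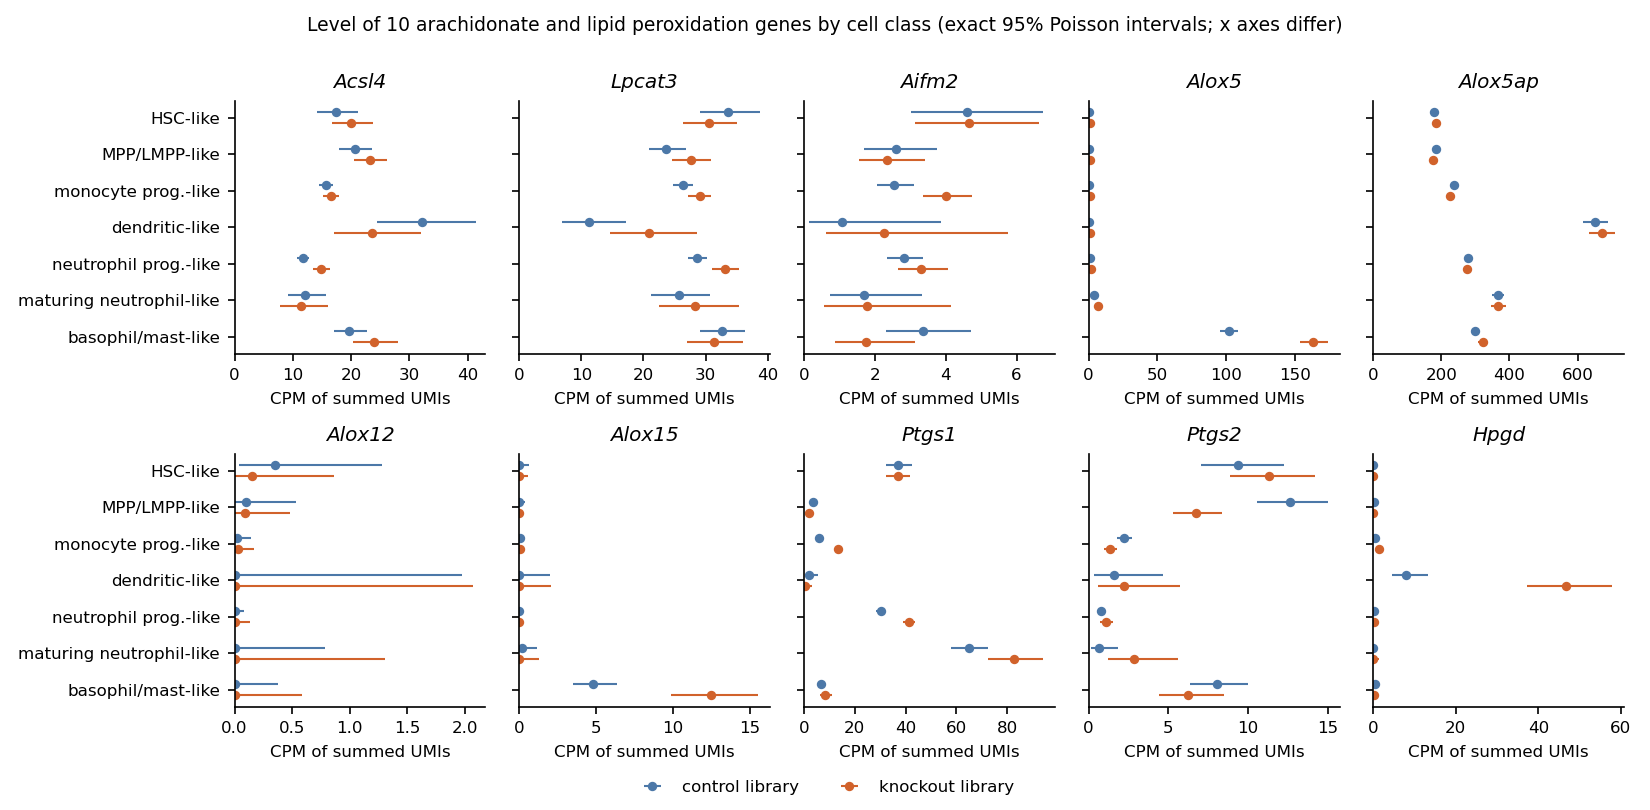
Level of each member (CPM of UMIs summed over a class, x axis) in the 7 compared classes (y axis) of the control (blue) and knockout (orange) libraries, with exact 95% Poisson intervals; x axes differ between genes. Alox5 and Alox15 peak in basophil/mast-like cells, Hpgd in dendritic-like cells and Ptgs1 in maturing neutrophil-like cells, and Alox5ap lies above 170 CPM in every class shown.

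Acsl4, the ligase that favours arachidonate, had a narrow range over the 7 compared classes. Its level in the control library ran from 11.8 CPM in neutrophil progenitor-like cells to 32.2 CPM in dendritic-like cells, and in the knockout from 11.4 CPM in maturing neutrophil-like cells to 23.9 CPM in basophil/mast-like cells. Dendritic-like cells stood apart from the next class in the control only; all other neighbours in the order overlapped in their intervals. Erythroid-like cells, a class below 100 cells in the control, were at 32.5 and 31.8 CPM (110 and 174 UMIs), above every compared class of the same library. The log2 differences ran from -0.44 to 0.34 over the 7 classes. The interval lay above 0 only in neutrophil progenitor-like cells, where the level was 11.8 CPM in the control and 14.9 CPM in the knockout (0.34, 0.15 to 0.53, 527 and 401 UMIs). Over all kept cells the level was 15.9 CPM and 17.8 CPM.

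Lpcat3, the acyltransferase that inserts the activated acyl chain, was also present in every compared class. Of these classes HSC-like cells were highest in the control at 33.7 CPM, and dendritic-like cells were lowest at 11.3 CPM, below the interval of the next class. In the knockout the dendritic-like level was 20.8 CPM and its interval overlapped that of its neighbour. That is a log2 difference of 0.89 (0.08 to 1.73) on 21 and 37 UMIs, 1 of 2 members called higher of 4 measured in this class, where 7.65% of 6029 genes were higher and 3.17% lower. The rule of 50 UMIs at any CPM gave the same members there, beside 7.66% of 6826 genes higher and 3.33% lower. With predicted doublets kept it was 0.58, under 1.5-fold. In the other 6 compared classes the difference lay between -0.14 and 0.22. Outside the compared classes Lpcat3 was higher still, at 65.8 CPM in the control and 52.7 CPM in the knockout in erythroid-like cells (223 and 288 UMIs; log2 -0.32, -0.58 to -0.06) and at 39.2 and 49.4 CPM in eosinophil-like cells (59 and 32 UMIs). Over all kept cells Lpcat3 stood at 28.2 CPM in the control and 31.1 CPM in the knockout.

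Aifm2 was scarce, at 2.66 CPM in the control and 3.25 CPM in the knockout over all kept cells (442 and 449 UMIs). Among the 4 classes with 50 UMIs, it was at least 1.5-fold apart in monocyte progenitor-like cells only, with 2.55 CPM (100 UMIs) in the control and 4.004 CPM (131 UMIs) in the knockout, a log2 difference of 0.65 (0.27 to 1.04). With each cell thinned to 5000 UMIs that difference was 0.16, on 27 and 21 UMIs, and no longer 1.5-fold. Of these 4 classes HSC-like cells were highest in both libraries, at 4.61 CPM and 4.65 CPM, with intervals that overlapped the next class. The exons of Aifm2 overlap H2afy2 on the opposite strand, those of Lpcat3 overlap Emg1, those of Alox5ap overlap Gm19719 and those of Ptgs1 overlap Gm43621; the sources used here do not say whether counting used the strand.

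Alox5, the 5-lipoxygenase that starts leukotriene synthesis, was concentrated in basophil/mast-like cells. This class held 5.91% of all UMIs in the control and 4.53% in the knockout, but 75.9% and 71.3% of the Alox5 UMIs. The level there was 102 CPM in the control (96.0 to 109, 1005 UMIs) and 164 CPM in the knockout (154 to 174, 1025 UMIs), a 1.60-fold difference (log2 0.68, 0.55 to 0.81), and the 2 intervals did not overlap. Of the 4 members measured in this class Alox5 alone was called higher, where 1.56% of 6274 genes were higher and 0.685% lower. The difference kept its direction but was under 1.5-fold with classes taken from Leiden clusters (0.53), with thresholds multiplied by 1.5 (0.56) and with cells thinned to 5000 UMIs (0.57).

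The share of basophil/mast-like cells with an Alox5 UMI was 65.8% in the control and 82.1% in the knockout, and 38.5% and 53.1% after each cell was thinned to 5000 UMIs. As a background, mature B or plasma-like cells had 1 UMI in 64 control cells and 0 in 35 knockout cells, which allows a share of up to 8.57% of knockout cells. Their median depths were 24799 and 26244 UMIs, against 16650 and 18857.5 in basophil/mast-like cells. Both the share of cells with the transcript and the summed level were higher in the knockout library.

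**Figure D2:**
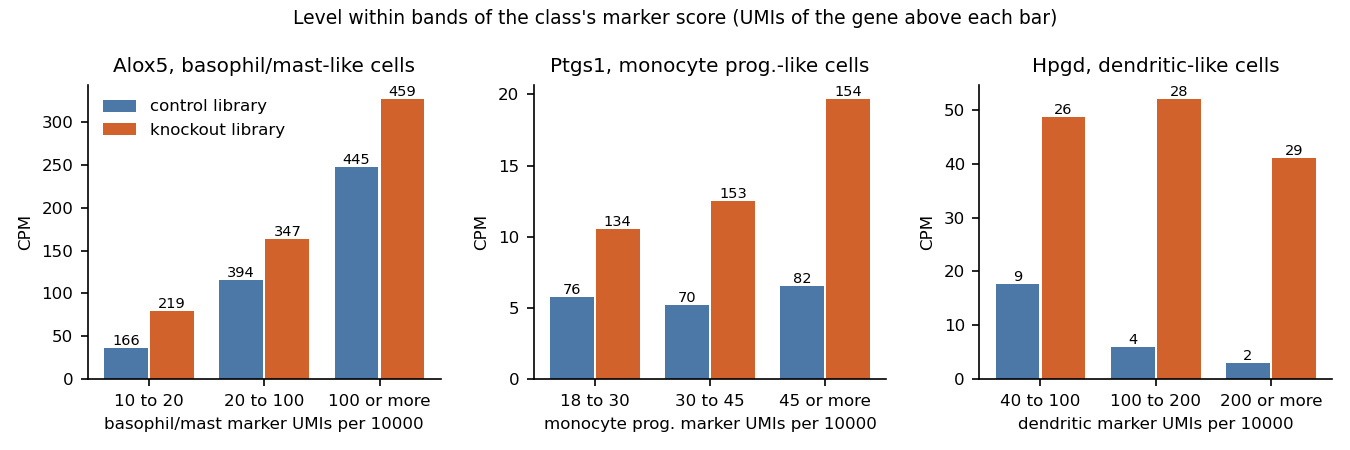
CPM (y axis) of Alox5, Ptgs1 and Hpgd within 3 bands of the marker score that defines the class in which each was compared (x axis, marker UMIs per 10000), in the control (blue) and knockout (orange) libraries; numbers above bars are UMIs. The knockout bar is the higher in all 9 pairs, and Alox5 also increases with the score in each library.

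The level of Alox5 increased with the basophil/mast marker score in both libraries, so the libraries were compared within bands of the score. The bands are wide and the last has no upper limit, so the score can still differ between the libraries within a band. Between 10 and 20 marker UMIs per 10000 the level was 35.9 CPM in the control and 80.0 CPM in the knockout (log2 1.16, 0.86 to 1.46). Between 20 and 100 it was 116 CPM and 163 CPM (0.50, 0.28 to 0.71). At 100 or more it was 247 CPM and 328 CPM (0.41, 0.21 to 0.60). The knockout was the higher in each band, and the lowest band had the largest difference. The class's own markers moved unevenly: Mcpt8, a basophil protease, stood at 2573 and 3425 CPM (0.41), Fcer1a, a chain of the IgE receptor, at 188 and 292 CPM (0.63), Prss34 at 2689 and 2907 CPM (0.11) and Cpa3 at 1403 and 1277 CPM (-0.13). Cma1, a mast cell protease, had 24 control UMIs and 1 knockout UMI. The 9 markers summed to 7452 CPM in the control and 8539 CPM in the knockout, and 1 of the 9 was at 0 in each. Their part in the Alox5 difference was not tested.

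Outside this class Alox5 was found at 20.5 CPM in the control and 36.5 CPM in the knockout in megakaryocyte-like cells (14 and 9 UMIs), and at 34.6 CPM and 55.6 CPM in eosinophil-like cells (52 and 36 UMIs), a class below 100 cells in each library. T, NK or innate lymphoid-like cells were at 26.7 and 31.0 CPM on 10 and 5 UMIs. Among the compared classes maturing neutrophil-like cells came next after basophil/mast-like cells in both libraries, at 3.60 and 6.74 CPM (17 and 19 UMIs). Their log2 difference was 0.90 (-0.12 to 1.94). An Alox5 UMI was in 5.91% and 11.5% of them, or 1.19% and 3.05% with cells thinned. Erythroid-like cells had 6 and 34 UMIs (log2 1.81, 0.54 to 3.36), in 5.10% and 19.2% of cells, or 1.03% and 1.61% with cells thinned. HSC-like cells had 1 control and 7 knockout UMIs, MPP/LMPP-like cells 2 and 9, monocyte progenitor-like cells 14 and 29 and neutrophil progenitor-like cells 43 and 46. The last was a log2 difference of 0.83 (0.20 to 1.46), but 0.14 on 11 and 6 UMIs with cells thinned. Cells with a UMI made up 0.21% of control and 1.55% of knockout HSC-like cells, 0.31% and 1.47% of MPP/LMPP-like cells and 0.77% and 2.53% of monocyte progenitor-like cells. Mature B or plasma-like cells had 1.56% in the control and 0 of 35 cells in the knockout. With cells thinned, monocyte progenitor-like cells had 0.19% and 1.02%, and mature B or plasma-like cells had 0 in both libraries. The shares lie under the 8.57% that 0 of 35 cells allows. They were not told apart from background. Under the rule of 50 UMIs Alox5 was 1 of 7 members called higher in neutrophil progenitor-like cells, where 5.38% of 11379 genes were higher and 2.17% lower.

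Alox15, the 12/15-lipoxygenase, followed the same class at a much lower UMI number. Basophil/mast-like cells held 47 of its 59 control UMIs and 78 of its 89 knockout UMIs, or 79.7% and 87.6%. The level there was 4.78 CPM in the control (3.51 to 6.36) and 12.5 CPM in the knockout (9.84 to 15.5), a log2 difference of 1.38 (0.84 to 1.94). It was under the 20 CPM floor; with the rule of 50 UMIs, Alox5 and Alox15 were the 2 of 7 members called higher in this class, beside 3.72% of 10032 genes higher and 1.91% lower. Cells with an Alox15 UMI numbered 36 of 556 in the control and 37 of 312 in the knockout. Of the knockout UMIs 32.1% lay in 5 cells, against 25.5% in the control. Most came from cells at 100 or more marker UMIs per 10000, with 41 control UMIs (22.8 CPM) and 70 knockout UMIs (49.95 CPM), a log2 difference of 1.13 (0.56 to 1.73) within that band. Eosinophil-like cells, which were not compared, had 7 and 6 UMIs, or 4.65 CPM in the control and 9.27 CPM in the knockout. In each library their interval overlapped that of basophil/mast-like cells, so by level Alox15 was not particular to basophil/mast-like cells. HSC-like, MPP/LMPP-like, dendritic-like and neutrophil progenitor-like cells had 0 Alox15 UMIs in both libraries.

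Alox12, the platelet-type 12-lipoxygenase, had 9 control and 4 knockout UMIs in all. Of the 9 control UMIs 4 lay in the 32 megakaryocyte-like cells, and the 11 knockout cells of that class had 0. Over the 7 compared classes the highest sum was 2 UMIs, in control HSC-like cells, so no comparison was made.

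Alox5ap, the membrane protein that presents arachidonate to 5-lipoxygenase, was abundant in every compared class and was not limited to the class that held Alox5. Its level was 651 CPM in the control and 671 CPM in the knockout in dendritic-like cells, 365 and 367 CPM in maturing neutrophil-like cells, and 298 and 321 CPM in basophil/mast-like cells. It was 279 and 275 CPM in neutrophil progenitor-like cells, 237 and 224 CPM in monocyte progenitor-like cells, 183 and 175 CPM in MPP/LMPP-like cells and 178 and 186 CPM in HSC-like cells. Neighbours in this order had separate intervals in both libraries, except HSC-like and MPP/LMPP-like cells, which overlapped. With cells thinned to 5000 UMIs, 91.9% of control and 96.0% of knockout dendritic-like cells had an Alox5ap UMI, 58.3% and 56.0% of HSC-like cells, 15.5% and 11.3% of erythroid-like cells and 14.1% and 17.1% of mature B or plasma-like cells. The log2 differences between the libraries ran from -0.08 to 0.11 over the 7 compared classes. They were small beside the whole range over classes, 178 to 651 CPM in the control, but not beside the smallest steps between neighbours. In megakaryocyte-like cells, which were not compared, it was 1.12 on 61 and 48 UMIs (0.54 to 1.69). With size factors from the median of ratios in place of total UMIs, the difference over all kept cells moved from -0.08 to -0.17.

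**Figure D3:**
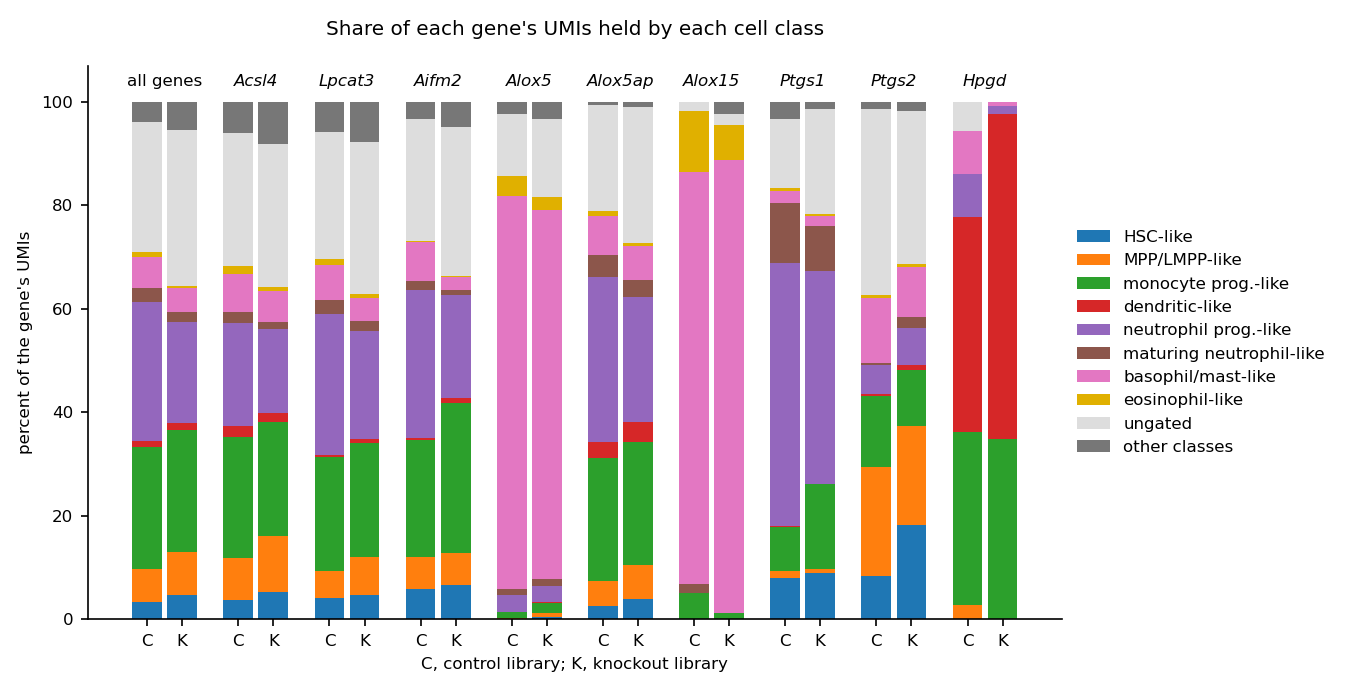
Percent of the UMIs of all genes and of 9 members (y axis) held by each cell class in the control (C) and knockout (K) libraries; Alox12, with 9 and 4 UMIs, is left out. Basophil/mast-like cells hold 75.9% and 71.3% of Alox5 UMIs but 5.91% and 4.53% of all UMIs, whereas no class, nor the ungated cells, holds more than 29.4% of the UMIs of Acsl4, Lpcat3 or Aifm2.

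Ptgs1, the constitutive cyclooxygenase, was found at both ends of the hierarchy sampled, in HSC-like and in neutrophil-lineage cells. Its level was 64.9 CPM in the control and 82.7 CPM in the knockout in maturing neutrophil-like cells, 37.0 and 36.9 CPM in HSC-like cells and 30.1 and 41.2 CPM in neutrophil progenitor-like cells. MPP/LMPP-like cells, which adjoin HSC-like cells in marker profile, had 3.64 CPM in the control and 2.00 CPM in the knockout, well below HSC-like cells and without overlap of the intervals. Megakaryocyte-like cells, the platelet lineage, had 89.5 CPM and 85.1 CPM on 61 and 21 UMIs. In the control the intervals of HSC-like and neutrophil progenitor-like cells were apart, and in the knockout they overlapped. Dendritic-like cells had 4 UMIs and 1 UMI.

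Of the 6 compared classes with 50 Ptgs1 UMIs, the libraries differed most in monocyte progenitor-like cells, with 5.81 CPM (5.08 to 6.61, 228 UMIs) in the control and 13.5 CPM (12.3 to 14.8, 441 UMIs) in the knockout, a 2.32-fold difference (log2 1.21, 0.98 to 1.45). With cells thinned to 5000 UMIs it was 1.92, on 28 and 74 UMIs. The level was under 20 CPM in both; with the rule of 50 UMIs, Aifm2, Ptgs1 and Hpgd were the 3 of 7 members called higher in this class and Ptgs2 the 1 called lower, beside 4.78% of 11578 genes higher and 1.81% lower. Under the stricter rule 2 members were measured there and none was called, beside 1.27% of 5981 genes higher and 0.451% lower. The difference was present in each band of the monocyte marker score: 0.87 between 18 and 30 marker UMIs per 10000, 1.28 between 30 and 45, and 1.60 at 45 or more. Cells with a Ptgs1 UMI made up 11.8% of the control class and 24.98% of the knockout class, and 1.74% and 6.29% after thinning, beside 1.56% and 2.86% of mature B or plasma-like cells. The median depths of the class were 24643 and 29119 UMIs.

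Neutrophil-lineage cells hold more Ptgs1 than this class, and their markers did not move in a single direction within it. The 9 neutrophil progenitor markers summed to 12031 CPM in the control and 10767 CPM in the knockout, none at 0 in either. Of that list Fcnb stood at 2.60 and 5.50 CPM (1.08) and Gstm1 at 154 and 280 CPM (0.86). The 10 maturing neutrophil markers summed to 27.0 and 43.0 CPM, among them S100a8 at 7.82 and 20.97 CPM (1.42). Among the class's own markers Cybb was higher (63.8 and 91.0 CPM, 0.51) and Ly86 lower (221 and 169 CPM, -0.39). Their part in the Ptgs1 difference was not tested.

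In the neutrophil lineage itself the Ptgs1 difference was smaller: 0.45 (0.34 to 0.57) in neutrophil progenitor-like cells and 0.35 (0.10 to 0.60) in maturing neutrophil-like cells, where the median of all measured genes was 0.10 in each. In HSC-like cells it was -0.01 (-0.28 to 0.27), and in MPP/LMPP-like cells -0.86 (-1.68 to -0.08) on 38 and 23 UMIs, or -0.36 with thresholds multiplied by 1.5 and -1.66 with Leiden clusters. Under the stricter rule 3 members were measured in each of these 4 classes and none was called. The share of measured genes higher there was 1.6% in neutrophil progenitor-like, 5.5% in maturing neutrophil-like, 1.29% in HSC-like and 0.917% in MPP/LMPP-like cells, and the share lower was 0.498%, 0.898%, 0.911% and 0.74%. With 50 UMIs at any CPM, none of 6 members was called in HSC-like cells, beside 2.98% of genes higher and 2.05% lower, and none of 4 in maturing neutrophil-like cells, beside 7.86% and 1.78%.

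**Figure D4:**
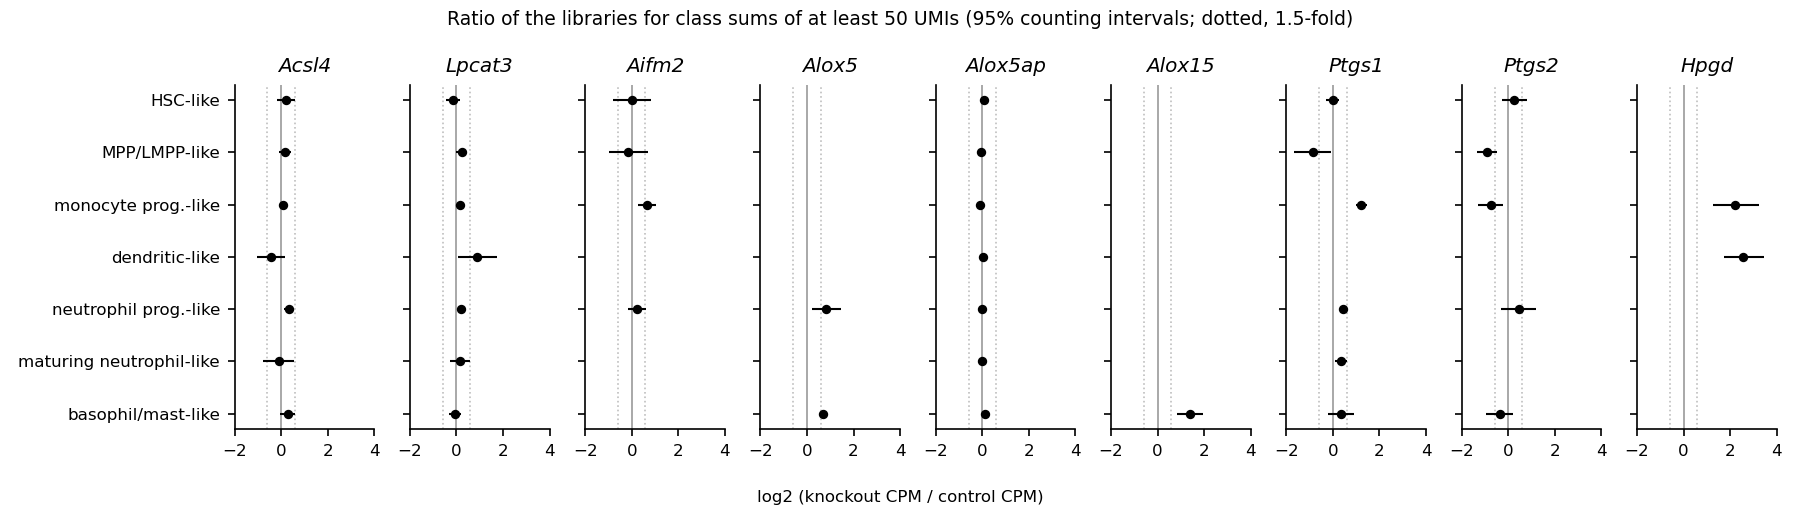
Log2 of knockout over control CPM (x axis) in each compared class (y axis) for the 41 member-class pairs with at least 50 UMIs, with 95% counting intervals; dotted lines mark 1.5-fold. Hpgd lies above 2 in both classes with enough UMIs, Alox5ap stays within -0.08 to 0.11, and Ptgs1 runs from -0.86 in MPP/LMPP-like cells to 1.21 in monocyte progenitor-like cells.

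Ptgs2, the inducible cyclooxygenase, was low, and MPP/LMPP-like, HSC-like and basophil/mast-like cells led the compared classes in both libraries. In basophil/mast-like cells at 100 or more marker UMIs per 10000, Ptgs2 stood at 16.7 CPM in the control and 12.1 CPM in the knockout (30 and 17 UMIs). Of the compared classes it was highest in the control in MPP/LMPP-like cells at 12.7 CPM (132 UMIs), followed by HSC-like cells at 9.39 CPM (53 UMIs) and basophil/mast-like cells at 8.03 CPM (79 UMIs), with overlapping intervals between neighbours. In the knockout HSC-like cells were highest at 11.3 CPM (73 UMIs), and MPP/LMPP-like cells followed at 6.71 CPM (77 UMIs), without overlap. The log2 difference was -0.92 (-1.34 to -0.50) in MPP/LMPP-like cells, -0.75 (-1.32 to -0.21) in monocyte progenitor-like cells on 87 and 43 UMIs, and 0.27 (-0.26 to 0.81) in HSC-like cells. Ptgs1 and Ptgs2 were the 2 of 6 members called lower in MPP/LMPP-like cells under the rule of 50 UMIs, beside 1.86% of 10687 genes lower and 3.36% higher.

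The Ptgs2 UMIs came from few cells. In MPP/LMPP-like cells 68 control and 40 knockout cells had a UMI, 10.5% and 6.53%, and 5 cells held 25.8% and 37.7% of the UMIs. In HSC-like cells 5 cells held 45.3% and 42.5%. With Leiden clusters the HSC-like difference was -0.47, against 0.27 with marker thresholds, so its direction depended on how the class was drawn. With cells thinned the monocyte progenitor-like difference was -0.06 on 15 and 10 UMIs and the MPP/LMPP-like difference -0.51 on 45 and 30 UMIs, both under 1.5-fold. In MPP/LMPP-like cells other markers also differed: neutrophil progenitor markers summed to 2227 CPM in the control and 1517 CPM in the knockout, and Il7r, a lymphoid receptor gene, stood at 18.3 and 55.2 CPM (1.59). Their part in the Ptgs2 difference was not tested.

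Hpgd, the dehydrogenase that inactivates prostaglandin E2 and its relatives, had the largest ratio of the 9 members with 50 UMIs. Dendritic-like and monocyte progenitor-like cells held 15 and 12 of its 36 control UMIs and 83 and 46 of its 132 knockout UMIs. The other control UMIs lay in basophil/mast-like (3), neutrophil progenitor-like (3), MPP/LMPP-like (1) and ungated cells (2), and the other knockout UMIs in basophil/mast-like (1) and neutrophil progenitor-like cells (2). In dendritic-like cells the level was 8.04 CPM (4.499 to 13.3) in the control and 46.7 CPM (37.2 to 57.9) in the knockout, a 5.81-fold difference (log2 2.54, 1.74 to 3.44). In monocyte progenitor-like cells it was 0.31 CPM and 1.41 CPM, a log2 difference of 2.20 (1.26 to 3.25). That ratio rests on few cells: 8 of 1553 in the control and 23 of 1145 in the knockout had an Hpgd UMI, 0.52% and 2.01%. In that class 5 cells held 75% of the control and 47.8% of the knockout UMIs. HSC-like, maturing neutrophil-like, erythroid-like and mature B or plasma-like cells had 0 UMIs in both libraries.

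Hpgd was spread over 38 of 124 knockout dendritic-like cells and 10 of 154 control cells, 30.6% and 6.49%, and 18.5% and 3.36% after thinning, while 0 of 64 control and 0 of 35 knockout mature B or plasma-like cells had a UMI. The 5 richest cells held 66.7% of the control UMIs and 36.1% of the knockout UMIs. The knockout was the higher in each band of the dendritic marker score, with 17.7 and 48.8 CPM between 40 and 100 marker UMIs per 10000, 5.90 and 52.2 CPM between 100 and 200, and 2.95 and 41.0 CPM at 200 or more. Cells with a UMI of Cd209a and none of Xcr1 had 9 control and 21 knockout UMIs of Hpgd (27 and 32 cells), cells with Xcr1 and no Cd209a had 1 and 10 (21 and 29 cells), and cells with neither had 4 and 52 (103 and 63 cells). Xcr1 marks conventional dendritic cells of the cross-presenting kind. Cd209a marks other dendritic cells and does not by itself tell monocyte-related from conventional ones.

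Class II genes of the dendritic class stood at like levels in the libraries: H2-Aa was at 3867 and 3874 CPM and Cd74 at 8092 and 8271 CPM. Both are among the markers whose summed UMIs defined the class, as are Cd209a, Batf3 and Siglech. Their levels are therefore partly set by the threshold and are no independent check of the class. Cd209a was higher in the knockout (37.5 and 67.0 CPM, 0.84), Batf3 lower (248 and 185 CPM, -0.42), and Siglech, the plasmacytoid marker, was scarce at 17 and 13 UMIs. The monocyte progenitor markers summed to 3743 and 3751 CPM and the neutrophil progenitor markers to 625 and 386 CPM, and macrophage markers were near 0, at 2.14 and 1.13 CPM with 7 and 6 of 8 genes at 0. The part of these shifts in the Hpgd difference was not tested.

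For the 7 members with at least 500 UMIs, the genes with the most similar pattern were sought among 10985 genes over 14 sums (7 classes in 2 libraries), by Pearson's r of log2(CPM + 1). These correlations are descriptions, and the sums of a library share its depth and free RNA. Alox5 was most like Map11 (0.97), 1700006J14Rik (0.96) and Ms4a2 (0.96), the last a chain of the IgE receptor and a marker that defined the class. Alox5ap was most like Pik3cb (0.98), Itgb2 (0.98), an integrin chain of leukocytes, and Napsa (0.97). Ptgs1 was most like Tmem53, Rab20 and Gm16104 (each 0.94), and Ptgs2 was most like Ing1 (0.95), Ptpre (0.94) and Zfp959 (0.94). Acsl4 was most like Ppp2r5c, Kctd10 and Phf8 (each 0.95), Lpcat3 most like Bcorl1 (0.97), Armcx3 (0.95) and Pon3 (0.95), and Aifm2 most like Alg14 (0.90), BC017158 (0.88) and Mitf (0.85). The log2 range over the 14 sums was 7.13 for Alox5 and 1.42 for Acsl4.

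The other genes of the pathway were followed in 5 lists of 90 genes, over all kept cells. Of all 6096 genes measured there, 1.02% were called higher and 0.607% lower, the background for the calls in each list. Of 18 genes of arachidonate release and reacylation, 7 were measured and 0 were called in either direction, with a median log2 difference of 0.18 against 0.08 for all measured genes. Acsl5 was at 64.2 and 71.7 CPM, Acsl1 at 41.1 and 46.5 CPM and Pla2g4a, the phospholipase that frees arachidonate, at 29.7 and 29.1 CPM. Acsl6 was lower on few UMIs, 39 and 16 (-1.02).

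Of 15 genes of lipoxygenase and leukotriene metabolism 2 were measured. Lta4h, which makes leukotriene B4, was at 186 and 187 CPM. Mgst2, which can conjugate leukotriene A4 to glutathione, was called higher at 42.0 and 65.0 CPM (0.63), beside 1.02% of all measured genes. In monocyte progenitor-like cells Mgst2 stood at 31.7 and 75.8 CPM (1.26). Below the floor Ggt5, which trims leukotriene C4, had 4.58 and 7.86 CPM (0.78), Ggt1 25 and 37 UMIs (0.83), Ephx2 67 and 30 UMIs (-0.89) and Alox8 35 and 11 UMIs (-1.40). Ltc4s, the leukotriene C4 synthase, was measured in HSC-like cells among the compared classes, at 20.2 and 20.3 CPM.

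Of 15 genes of prostanoid synthesis, transport and breakdown 7 were measured. Tbxas1, the thromboxane synthase downstream of the cyclooxygenases, was the 1 called higher, at 12.96 and 23.8 CPM (0.88), beside 1.02% of all measured genes. It reached 20 CPM in the knockout library only, and so was measured through the library in which it was higher. In dendritic-like cells Tbxas1 stood at 25.2 CPM on 47 UMIs and 101 CPM on 180 UMIs (2.01, 1.54 to 2.50), in monocyte progenitor-like cells at 3.36 and 14.0 CPM (2.06, 1.78 to 2.35) and in HSC-like cells at 53.7 and 57.7 CPM (0.10, -0.12 to 0.33). It stood higher in the knockout in maturing neutrophil-like (6.36 and 16.3 CPM, 1.36), neutrophil progenitor-like (9.87 and 20.5 CPM, 1.05) and basophil/mast-like cells (26.9 and 54.1 CPM, 1.01), and stood at 15.9 and 19.4 CPM (0.28) in MPP/LMPP-like cells. The abundant members Ptges3 (264 and 311 CPM), Akr1b3 (121 and 120.5 CPM) and Ptgr1 (45.2 and 48.8 CPM) were within 1.5-fold. Cbr3, a carbonyl reductase, had 153 and 302 UMIs (1.25).

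Of 14 eicosanoid receptors only Ltb4r1, the leukotriene B4 receptor, was measured, at 39.1 and 34.3 CPM (-0.19). Ptgir, the prostacyclin receptor, had 132 and 281 UMIs (1.36), of which monocyte progenitor-like cells held 62 and 159. Tbxa2r, the thromboxane receptor, had 600 and 830 UMIs (0.74), with 26.5 and 38.0 CPM in MPP/LMPP-like cells. Ptger1 had 73 and 101 UMIs (0.74).

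Of 28 genes of lipid peroxidation and its defence 18 were measured, with a median log2 difference of 0.16. Ftl1, the ferritin light chain, was the 1 called higher (1.26) and Gpx4 the 1 called lower (-1.65). Of all measured genes 1.02% were called higher and 0.607% lower. In the classes where members differed, Gpx4 stood at 325 and 91.5 CPM in basophil/mast-like cells, at 399 and 130 CPM in monocyte progenitor-like cells and at 192 and 68.7 CPM in dendritic-like cells. Slc7a11, the cystine importer, had 27 control and 514 knockout UMIs in monocyte progenitor-like cells and 13 and 108 in basophil/mast-like cells, but 1 and 3 in dendritic-like cells. Hmox1 (2.55) and Nqo1 (3.24), both targets of the antioxidant response, were under 20 CPM over all kept cells. Prdx6, Fth1, Pebp1 and Scp2 had differences between -0.08 and 0.57.

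**Figure D5:**
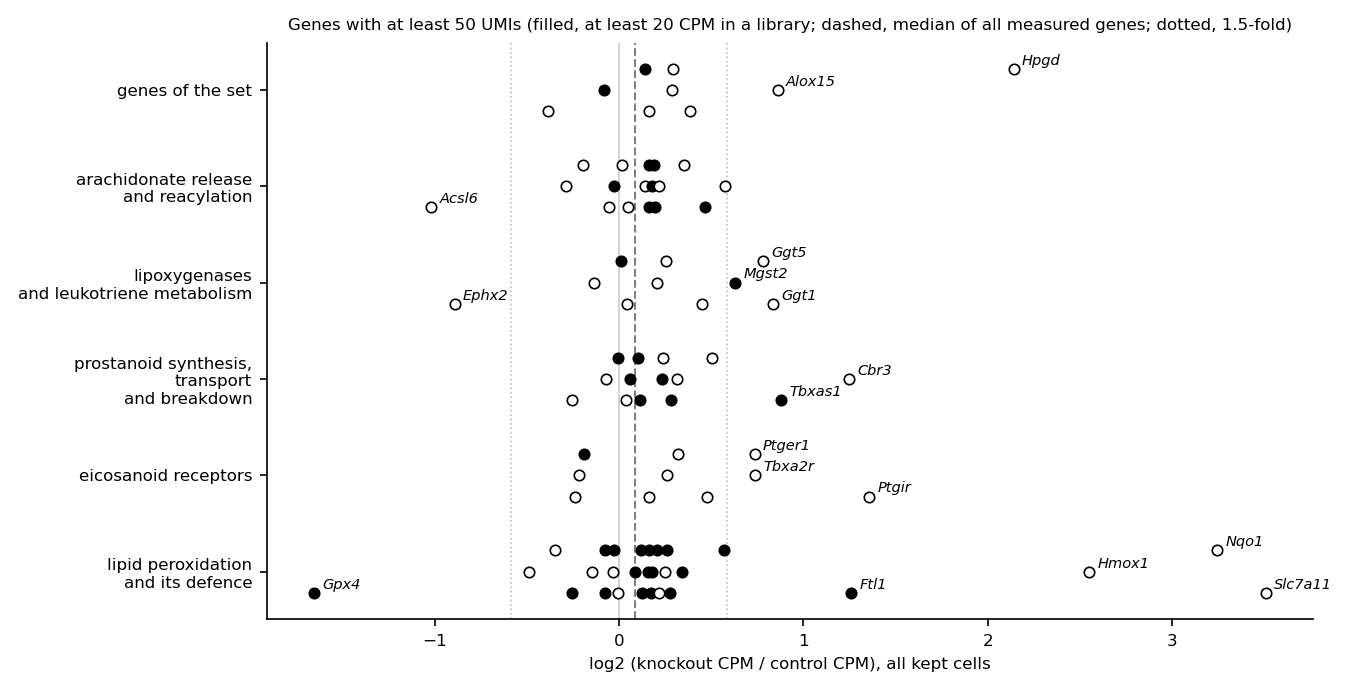
Log2 of knockout over control CPM over all kept cells (x axis) for members and the genes of 5 pathway lists with at least 50 UMIs (y axis); filled points reach 20 CPM in a library, the dashed line is the median of all measured genes (0.08) and dotted lines mark 1.5-fold. Most points lie between the dotted lines; the filled points outside them are Mgst2, Tbxas1, Ftl1 and Gpx4.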

How the data were processed

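Libraries of 10x Chromium 3' RNA were counted by the authors with Cell Ranger 6.1.2 on mm10, per the submitters' processing notes and the file headers; the sources used here give neither the annotation release nor the cell calling. In the deposited files are raw UMI counts per gene and barcode (184683653 control and 152092210 knockout UMIs). Barcodes were kept from 500 genes up where mitochondrial UMIs were below 10%, and doublets were predicted with Scrublet (scanpy 1.11.5); the control's score threshold was used for both libraries and removed 146 control and 66 knockout cells. Cells with at least 3000 UMIs and 5 marker UMIs were classed by marker UMIs per 10000, tried in a set order. UMIs were summed per class and library and scaled to CPM computed from the deposited counts. Intervals are exact Poisson or conditional binomial (scipy 1.17.1). Only the ratio intervals were run on simulated counts, drawn from the Poisson model that they assume. That run checks the calculation and cannot show whether the intervals hold where few cells carry many of the UMIs. PCR duplicates are collapsed by UMI, and intervals cover counting error only. Named genes are all 10 members, list genes at least 1.5-fold apart over all kept cells with at most 4 others per list by UMIs, the 3 genes most like each member, and genes singled out by class after their values were seen. Alternatives changed scaling, floors, fold, cell filters, doublets, depth, thinning, clustering (Leiden, resolution 1) and thresholds; the rule of 50 UMIs at any CPM and the removal of shared barcodes were chosen after seeing the data. The members and lists were chosen with earlier results of these data known.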

Additional observations from a re-analysis of the deposited data

Results flagged for a closer look

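For 2 members, among the compared classes with at least 50 UMIs of the member, the interval of the knockout over control ratio lay above 0 in some cell classes and below 0 in others; the difference between classes was not tested, and each ratio rests on 1 library per genotype. Ptgs1 had log2 differences of 1.21 in monocyte progenitor-like cells, 0.45 in neutrophil progenitor-like cells and 0.35 in maturing neutrophil-like cells, and -0.86 in MPP/LMPP-like cells. Alox5ap had 0.11 in basophil/mast-like cells and -0.081 in monocyte progenitor-like cells, both well under 1.5-fold. Without these limits 3 more members had intervals on both sides of 0: Ptgs2, through 2.16 (0.10 to 4.71) on 3 and 8 UMIs in maturing neutrophil-like cells, Lpcat3, through -0.32 in erythroid-like cells, and Acsl4, through -1.43 (-2.68 to -0.17) on 12 and 13 UMIs in CLP-like cells, common lymphoid progenitors by their markers.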

How the results depend on the processing

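Over 50 member ratios and 8 alternatives, 372 of 400 values lay within the counting interval of the reported value, and 28 moved outside it. Some of the 372 were fixed by construction, because Leiden clusters and multiplied thresholds cannot change a ratio over all kept cells. Leaving out the 10 shared barcodes also removed few cells. The sign changed in 19 of the 400, none of them for a ratio called at 1.5-fold; 16 of the 19 lay within the interval and 3 outside it (Lpcat3 in monocyte progenitor-like cells, from 0.14 to -0.19 with cells thinned, and, with Leiden clusters, Aifm2 in MPP/LMPP-like cells, from -0.14 to 0.85, and Ptgs2 in HSC-like cells, from 0.27 to -0.47); the 40 values for the 5 leading ratios (Alox5 and Alox15 in basophil/mast-like, Hpgd in dendritic-like, Ptgs1 in monocyte progenitor-like and Ptgs2 in MPP/LMPP-like cells) kept their sign. With Leiden clusters Alox5 moved to 0.53 and Ptgs1 to 0.95; Ptgs1 was 0.97 with stricter cell filters (1000 genes, 5% mitochondrial UMIs) and 1.92 with cells thinned to 5000 UMIs; Ptgs2 was -1.41 with thresholds multiplied by 1.5. The causes were not tested. Counts of calls depended on the rule by construction. Over all kept cells 62 genes were higher and 37 lower; 34 were higher with a floor of 50 CPM, 1507 higher and 954 lower with only 10 UMIs required, 20 and 22 at 2-fold, and 796 and 366 with 50 UMIs at any CPM. Of members, 0 were higher or lower, but 2 were higher and 1 lower with 10 UMIs, and 2 higher with 50 UMIs. Of member-class pairs 3 were higher and 0 lower; 1 was higher with a floor of 50 CPM, at 2-fold or with thresholds multiplied by 1.5, 12 higher and 4 lower with 10 UMIs, and 8 higher and 3 lower with 50 UMIs. No paired analysis was possible because each genotype has 1 library, and no replicate could be left out. Depth limits Alox12, Alox15, Hpgd and Aifm2, whose class sums are often under 50 UMIs.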
